A study of Drosophila melanogaster with 6 samples.

Results

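The Dpr and DIP genes of Drosophila melanogaster encode cell surface immunoglobulin proteins, and 31 of them, dpr1 to dpr21 and DIP-alpha to DIP-kappa, were followed here through the larval optic lobe neuroepithelium. The 31 genes were chosen by name, and all 31 were found among the 17559 gene identifiers of the deposited count table. RNA was measured in 3 dorsal libraries and 3 ventral libraries of the outer proliferation centre (OPC), the neuroepithelium that gives rise to the medulla. Each library held GFP-labelled cells drawn by glass pipette on the dorsal or the ventral side of the OPC of late second-instar larvae that the labels give as female, raised at 25 °C, with cells of 3 to 4 brains pooled. The labels name neither the driver of the GFP nor the genotype, and they do not say whether the pooled samples of a group came from separate days, so p-values measure only the spread between these pools. The comparison of dorsal with ventral cells asks what distinguishes the dorsal from the ventral side of this tissue, and here also which Dpr and DIP genes were read at this early stage.

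Dpr proteins (named after the founding gene, defective proboscis extension response, whose loss impairs the avoidance of salt) bind DIPs, the Dpr-interacting proteins, across the gap between neurons. Most Dprs bind only a few DIPs, so that the set of genes a neuron uses gives its surface an address. In the pupal medulla, matched partners are known to guide the choice of synaptic partners and to keep some neurons alive. Both families are best known from neurons that are already growing axons. The samples were drawn from the neuroepithelium, but every library also held RNA of neuron genes, as given below. Reads of a Dpr or DIP gene here can therefore not be assigned to cells from before neurons form.

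Depth and composition set limits on what follows. The dorsal libraries held 25340188 to 27815885 counted reads and the ventral libraries 21114019 to 26259242. Ventral replicates 1 and 2 stood apart from the other libraries and from each other. Their log2 levels correlated across genes, a description only, with each other at 0.953, the lowest value of any pair. With the dorsal libraries, ventral replicate 1 correlated at 0.963 to 0.967 and ventral replicate 2 at 0.969 to 0.972. The dorsal libraries correlated with each other at 0.98 to 0.983. Ventral replicate 3 correlated at 0.983, 0.984 and 0.985 with the 3 dorsal libraries. With ventral replicates 1 and 2 it correlated at 0.969 and 0.976. The neuroepithelial genes shg (E-cadherin), with 91.2 to 210.1 CPM, and ogre, with 754 to 1318 CPM, were read in every library, where CPM is the read count scaled to a common library total. The neuronal RNA-binding protein gene elav was also read in every library, at 470.5, 521 and 235 CPM in the dorsal libraries, against 274, 583 and 334 CPM in the ventral libraries, and the neuroblast gene ase at 211 to 476 CPM. The samples thus held RNA of neuroblast and neuron genes beside that of the neuroepithelium. In bulk RNA, more cells of a type and more RNA per cell cannot be told apart. lncRNA:roX2, which is made mainly in males, had 16000, 7580 and 0 reads in the dorsal libraries, against 6888, 62 and 5680 reads in the ventral libraries. The related lncRNA:roX1 was read in every library, with 84065, 40834 and 12650 reads in the dorsal libraries, against 39513, 9246 and 34262 reads in the ventral libraries. The libraries therefore differed in sex-linked RNA although all carry the label female. Of the 31 genes, 5 (dpr8, dpr14, dpr18, DIP-alpha and DIP-beta) lie on the X chromosome. The part of this RNA or of sex in their values was not tested.

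Levels differed widely among the Dpr and DIP genes. Together the 31 genes held 15688 reads over the 6 libraries, 0.0104% of all reads, and dpr7 alone held 50.3% of them. A mean of at least 1 CPM over the 6 libraries was reached by 11 of the 31 genes, 8 of 21 dpr genes and 3 of 10 DIP genes, against 44.6% of all genes in the table. The 11 were dpr7, dpr18, DIP-alpha, dpr19, DIP-eta, dpr12, dpr14, dpr8, dpr9, DIP-epsilon and dpr21. At least 1 CPM in all 6 libraries was reached by 5 genes, dpr7, dpr18, DIP-alpha, DIP-eta and dpr12. Of the other end of the range, 13 genes had under 20 reads in every library. Each of the 13 had reads in at least 1 library, so they were detected at a low level. Where a single library had 0 reads, up to 3 reads remain possible, which is 0.108 to 0.142 CPM in these libraries, and this limit covers counting error only.

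Levels between genes were compared as RPKM, the CPM divided by exon length in kilobases, with exon lengths from the Ensembl annotation of BDGP6. On this per-length scale dpr7 averaged 35.6 RPKM over the 6 libraries, from 15.5 to 66.2, and ranked 2446 of 15591 genes with a read. dpr18 followed at 5.18 (2.79 to 7.43), below the whole range of dpr7. The next levels were 2.05 for dpr19, 1.76 for DIP-eta, 1.08 for dpr12, 1.03 for dpr21, 0.974 for DIP-alpha and 0.705 for dpr14. From dpr18 down, the library ranges of every pair of neighbours in this order overlapped. The order depends on length: dpr21, whose annotated exons span 993 bp, stands above DIP-alpha, whose exons span 8983 bp, although DIP-alpha had the higher CPM. Exons of DIP-alpha share 106 bp with ppk8 on the opposite strand and 158 bp with CG2875 on its own strand, and reads there cannot be assigned with certainty, since whether strand was used in counting is not stated in the sources.

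**Figure D1:**
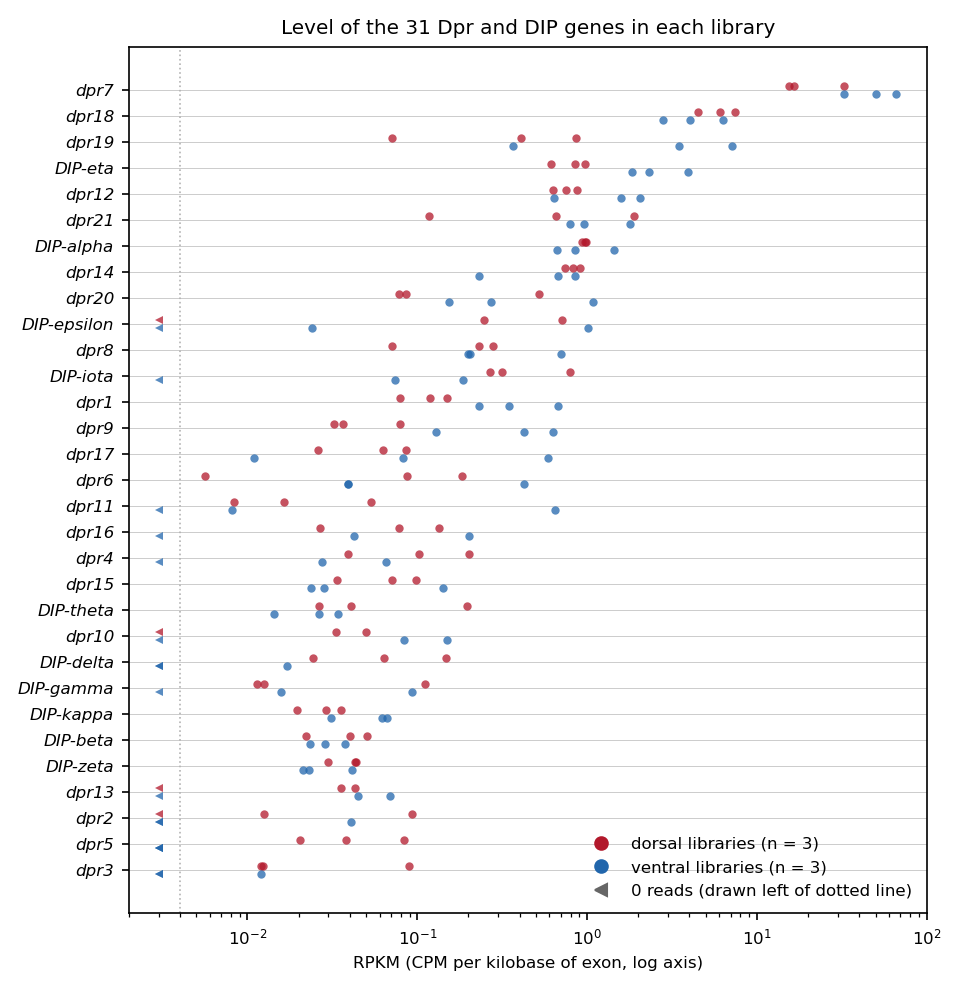
RPKM, the CPM per kilobase of exon (log axis), of the 31 Dpr and DIP genes, ordered by their mean, with 1 point per library (3 dorsal, 3 ventral) and libraries with 0 reads drawn at the left edge. The points of dpr7 run from 15.5 to 66.2 and lie above those of every other member.

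No Dpr or DIP gene passed the dorsal against ventral test. Of the 31 genes, 14 passed the filter on low counts and were tested (11 dpr genes, 3 DIP genes), and none reached an adjusted p under 0.05 with edgeR's quasi-likelihood test, where 0.0919% of the 8707 genes tested did (0.0230% toward dorsal and 0.0689% toward ventral). Each of the 14 had an adjusted p of 1. At an unadjusted p under 0.05 there were 4 members, dpr7, DIP-eta, dpr9 and dpr19, all with higher values in ventral libraries, where 1.96% of tested genes met this limit toward ventral and 3.20% in either direction. DESeq2 called 1 member, DIP-eta, toward ventral, where it called 0.321% of genes toward ventral, and 0 members toward dorsal, where it called 0.130%. limma-voom and limma on the deposited normalized counts called 0 members. Levels below are CPM, and each log2 fold change is the dorsal minus the ventral value ± SE from edgeR; as all 14 share the adjusted p of 1, it is not repeated.

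The group of DIP-eta, DIP-theta and DIP-iota, which bind dpr1 to dpr5 and dpr7, held dpr7, the most abundant member per length, and DIP-eta, the member that DESeq2 called. Of its 9 genes, 3 were tested (dpr7, DIP-eta and dpr1), each with higher values in ventral libraries. dpr7 (FBgn0053481, chromosome 4, 247124 to 253329, minus strand) stood at 23.5, 49.2 and 25.2 CPM in the dorsal libraries, given here in the order of replicates 1 to 3, against 75.9, 100.3 and 49.5 CPM in the ventral libraries. Dorsal replicate 2 was high among the dorsal libraries and ventral replicate 3 low among the ventral ones, so that the groups met at 49.2 and 49.5 CPM, and they overlapped when libraries were scaled by their totals alone or by upper-quartile factors. The log2 fold change of dpr7 was -1.20 ± 0.34.

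DIP-eta (FBgn0031725, chromosome 2L, 5601723 to 5617946, minus strand) separated the groups more widely. It stood at 2.53, 2.9 and 1.83 CPM in the dorsal libraries, with 65, 82 and 48 reads, against 6.9, 11.8 and 5.48 CPM in the ventral libraries, with 182, 241 and 133 reads. Every ventral library lay above every dorsal one. edgeR gave a log2 fold change of -1.73 ± 0.53, which is 3.32-fold, and -1.75 ± 0.44 (adjusted p = 0.0231) with DESeq2. dpr1 (chromosome 2R), the founding Dpr gene, stood at 0.429, 0.283 and 0.535 CPM in the dorsal libraries, against 2.43, 0.835 and 1.24 CPM in the ventral libraries. These levels rest on 8 to 14 reads in dorsal libraries and 17 to 64 reads in ventral libraries, and the log2 fold change was -1.84 ± 0.87.

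The remaining 6 genes of this group were too low to be tested. DIP-iota had 27, 10 and 11 reads in the dorsal libraries, against 0, 2 and 6 reads in the ventral libraries, the reverse of DIP-eta. DIP-theta, which begins 8.35 kb beyond DIP-eta on chromosome 2L, had 26 reads over all 6 libraries where DIP-eta had 751. dpr2, dpr3, dpr4 and dpr5 had 0 to 17 reads per library, and dpr5 had 4, 2 and 1 reads in dorsal libraries and 0 in all 3 ventral ones.

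DIP-alpha, known from medulla Dm4 and Dm12 neurons as the receptor of dpr6 and dpr10, was read in all 6 libraries with like group means, 8.64 ± 0.274 CPM for the dorsal and 8.85 ± 3.62 CPM for the ventral group (SD, n = 3 each). It stood at 8.85, 8.75 and 8.33 CPM in the dorsal libraries, against 12.9, 5.99 and 7.63 CPM in the ventral libraries. The dorsal values lay close together inside the range of the ventral ones, of which ventral replicate 1 was above and the other two below every dorsal library, and the log2 fold change was -0.03 ± 0.41. Its ligands were scarce. dpr6 had 14, 1 and 30 reads in dorsal libraries and 71, 5 and 6 reads in ventral libraries, and a fitted log2 fold change of -0.89 ± 1.30, with 54.8% of its summed CPM in ventral replicate 1. dpr10, the neighbour of dpr6 at a distance of 8.09 kb on chromosome 3L, had 0 to 5 reads in dorsal libraries and 0 to 14 reads in ventral libraries and was not tested.

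The DIP-beta partners dpr8, dpr9 and dpr21 reached a mean of 1 CPM over the 6 libraries, while DIP-beta itself was close to 0. They did so through the ventral libraries, since their dorsal means were 0.96, 0.238 and 0.881 CPM. The dorsal mean of dpr9 was near the 0.199 CPM of DIP-beta. DIP-beta had 3, 6 and 7 reads in the dorsal libraries, against 4, 4 and 3 reads in the ventral libraries. dpr9 (FBgn0038282, chromosome 3R, 15054930 to 15077206, minus strand) stood at 0.156, 0.177 and 0.382 CPM in the dorsal libraries, with 4, 5 and 10 reads, and at 3.03, 2.06 and 0.618 CPM in the ventral libraries, with 80, 42 and 15 reads. Its groups did not overlap, but ventral replicate 3 lay close to the dorsal libraries, and the log2 fold change was -2.97 ± 0.98. dpr8 stood at 0.351, 1.38 and 1.15 CPM in the dorsal libraries, against 1.02, 3.49 and 0.989 CPM in the ventral libraries, with ventral replicate 2 alone above the dorsal range (log2 fold change -0.93 ± 0.90, and -0.07 without that library). dpr21 ranged from 0.117 to 1.88 CPM in dorsal libraries and from 0.786 to 1.78 CPM in ventral libraries, with overlapping groups (-0.41 ± 1.02).

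DIP-delta and its ligand dpr12, known from mushroom body wiring, differed in level. dpr12 (FBgn0085414, chromosome 2R) stood at 2.96, 4.11 and 3.52 CPM in the dorsal libraries and at 7.43, 9.58 and 3.01 CPM in the ventral libraries. Ventral replicates 1 and 2 were high, ventral replicate 3 fell inside the dorsal range, and the log2 fold change was -0.92 ± 0.56. DIP-delta had 3, 20 and 8 reads in dorsal libraries and 0, 0 and 2 reads in ventral libraries and was not tested.

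Among DIP-epsilon, DIP-zeta and the dpr genes grouped with them, dpr18 and dpr14 were the only tested members of the 31 with higher fitted values in dorsal libraries. dpr18 (FBgn0030723, chromosome X, 16063738 to 16070304, plus strand) stood at 15.9, 11.8 and 19.5 CPM in the dorsal libraries, against 16.6, 10.6 and 7.34 CPM in the ventral libraries, with overlapping groups (log2 fold change 0.45 ± 0.37). dpr14, also on chromosome X, stood at 2.89, 3.54 and 3.25 CPM in the dorsal libraries, against 2.62, 3.34 and 0.907 CPM in the ventral libraries, where ventral replicate 3 was low (0.50 ± 0.69, and 0.11 without that library).

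dpr19 and DIP-epsilon varied widely between libraries of a group. dpr19 (FBgn0032233, chromosome 2L, 10376168 to 10379905, plus strand) stood at 2.3, 1.1 and 0.191 CPM in the dorsal libraries, with 59, 31 and 5 reads, and at 19.1, 9.29 and 0.989 CPM in the ventral libraries, with 505, 189 and 24 reads. Ventral replicates 1 and 2 lay far above all dorsal libraries and ventral replicate 3 lay inside their range. Its log2 fold change was -3.03 ± 1.07, 8.17-fold, close to the -2.97 ± 0.98 of dpr9. With 1 library left out it ran from -3.92 (without dorsal replicate 1) to -2.10 (without ventral replicate 1). DIP-epsilon had 20, 63 and 0 reads in dorsal libraries and 2, 65 and 0 reads in ventral libraries, so that replicate 2 of each group held most of its reads and replicate 3 of each group none (log2 fold change -0.10 ± 1.76). dpr20 stood at 0.213 to 1.41 CPM in dorsal libraries and 0.417 to 2.95 CPM in ventral libraries (-1.13 ± 1.11), and dpr13 and DIP-zeta had 0 to 6 reads per library.

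DIP-gamma, known with dpr11 from the matching of R7 photoreceptors with their medulla target Dm8, and its ligands dpr11, dpr15, dpr16 and dpr17 were all too low to be tested. Single libraries stood out among them. dpr11 had 1, 7 and 2 reads in dorsal libraries and 1, 0 and 73 reads in ventral libraries, so that ventral replicate 3 held 88.2% of its summed CPM. dpr17 had 3, 8 and 10 reads in dorsal libraries and 69, 1 and 9 reads in ventral libraries, with 68.5% of its summed CPM in ventral replicate 1. dpr15 and dpr16 had 0 to 13 reads per library, DIP-gamma 0 to 9, and DIP-kappa, which stands alone in this grouping, 2 to 7.

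**Figure D2:**
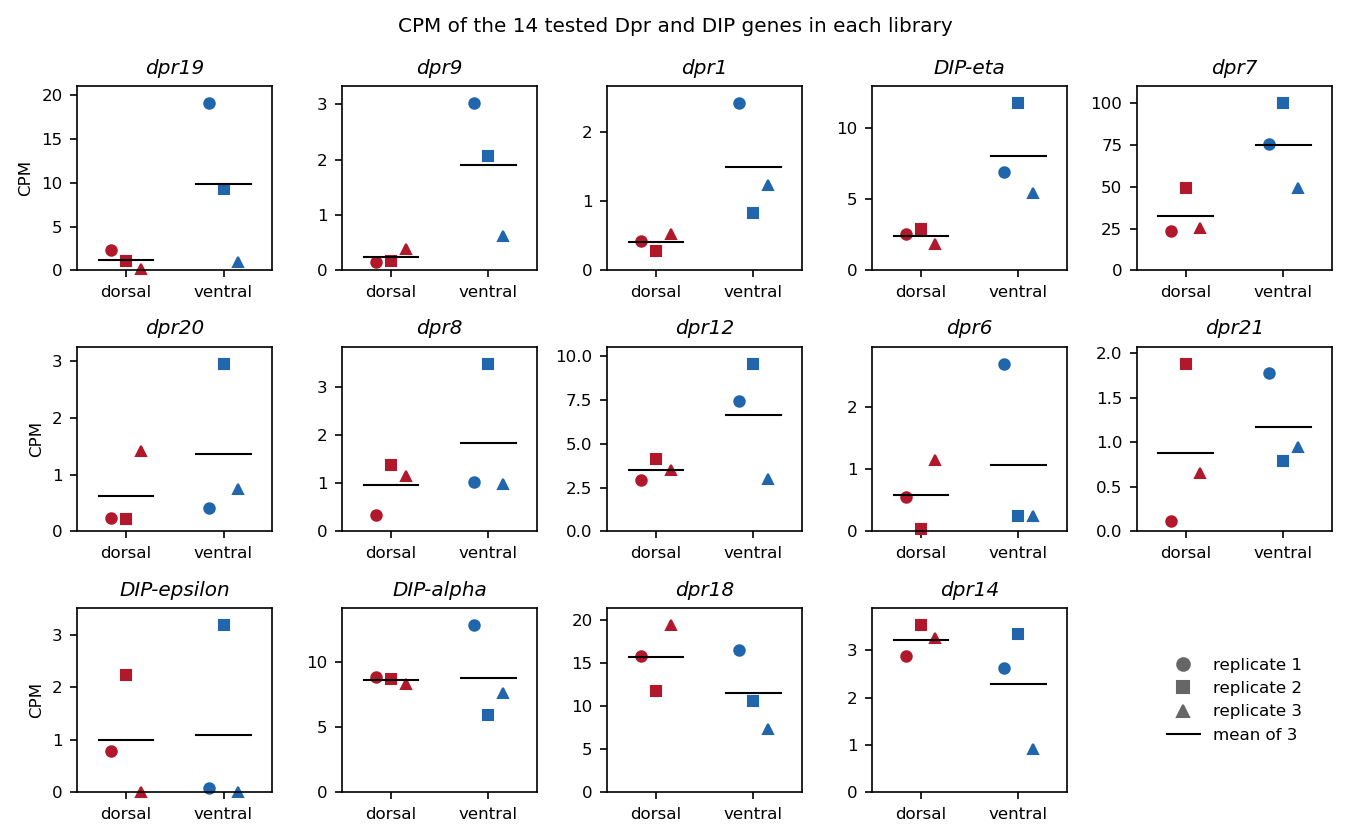
CPM of the 14 tested genes in each library (points, with 1 symbol per replicate number; bars are means of 3 libraries), dorsal libraries left and ventral libraries right, ordered by log2 fold change. In dpr19 the ventral libraries stand at 19.1, 9.29 and 0.989 CPM, and in DIP-eta all 3 ventral libraries lie above the dorsal ones.

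Most tested members had higher values in ventral libraries, and more of them stood above all dorsal libraries in ventral replicates 1 and 2 than in ventral replicate 3. Of the 14 tested members, 12 had higher fitted values in ventral libraries and the median log2 fold change was -0.92, where 49.7% of all tested genes were higher in ventral and the median over all was 0.00. A gene high in 1 group can pass the filter through that group alone, so these counts describe the 14 and support nothing about the family. With no filter, 17 of the 31 members had higher fitted values in ventral libraries, where 47.2% of 15844 genes did, and the median was -0.08. That median was also -0.08 with dpr5, which had no ventral reads, set to the bound that 3 reads allow. Of the 17 members that were not tested, 5 had higher fitted values in ventral and 12 in dorsal libraries.

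Library by library, ventral replicate 1 lay above all 3 dorsal libraries for 8 of the 14 tested members (57.1%, where 29.8% of tested genes did) and below all of them for 1, dpr14 (7.14%, where 33.4% of tested genes did). Ventral replicate 2 lay above all 3 for 9 members (64.3%, where 29.8% of tested genes did) and below for dpr18 and DIP-alpha (14.3%, where 33.0% of tested genes did). Ventral replicate 3 lay above all 3 for 4 members, dpr1, dpr7, dpr9 and DIP-eta (28.6%, where 22.3% of tested genes did), and below for dpr14, dpr18 and DIP-alpha (21.4%, where 22.0% of tested genes did). The share in ventral replicate 3 was thus near that of all genes. The 4 members that ventral replicate 3 placed above the dorsal range are also the 4 of 14 whose groups did not overlap, toward ventral. Of tested genes, 3.17% did not overlap in that direction. No tested member separated the groups toward dorsal, where 4.09% of tested genes did. All these shares of the 14 carry the limit of the filter given above. With no filter, 4 of 31 members separated the groups toward ventral (12.9%, where 2.46% of genes did). Toward dorsal 3 of 31 did (9.68%, where 4.17% did), namely dpr5, DIP-delta and DIP-iota, all too low to be tested.

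Summed over the 31 genes, the level was 64.2, 92.5 and 70.3 CPM in the dorsal libraries, against 157, 167 and 84.4 CPM in the ventral libraries. Without dpr7 the sums were 40.7, 43.3 and 45.1 CPM in the dorsal libraries, against 81.6, 66.4 and 34.9 CPM in the ventral libraries. Ventral replicates 1 and 2 were thus above every dorsal library on both sums, and without dpr7 ventral replicate 3 was below every dorsal library. The number of members at 1 CPM or more was 8, 10 and 9 in the dorsal libraries, against 13, 11 and 7 in the ventral libraries.

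With ventral replicates 1 and 2 left out together, the 1 ventral library that remains is taken to vary as much as the dorsal libraries do. These 2 libraries were known to hold the higher values. A shift toward dorsal was therefore built into this fit, which describes the 14 and is no independent support. The median log2 fold change over the same 14 members was then 0.07, with 7 of 14 higher in ventral, where the median of all tested genes was 0.04. Without ventral replicate 1 alone the median over the 14 was -1.02, and without ventral replicate 2 alone it was -0.60. dpr19 moved from -3.03 ± 1.07 to 0.27 ± 1.40, dpr12 from -0.92 ± 0.56 to 0.23 ± 0.72 and dpr6 from -0.89 ± 1.30 to 1.20 ± 1.96. dpr9 had -1.36 ± 1.53, dpr7 -0.60 ± 0.41, DIP-eta -1.18 ± 0.70 and dpr1 -1.56 ± 1.24 in that fit, all still toward ventral. Toward dorsal, dpr14 had 1.82 ± 0.88 and dpr18 1.10 ± 0.45. Each of these values had an adjusted p of 0.998 (edgeR).

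**Figure D3:**
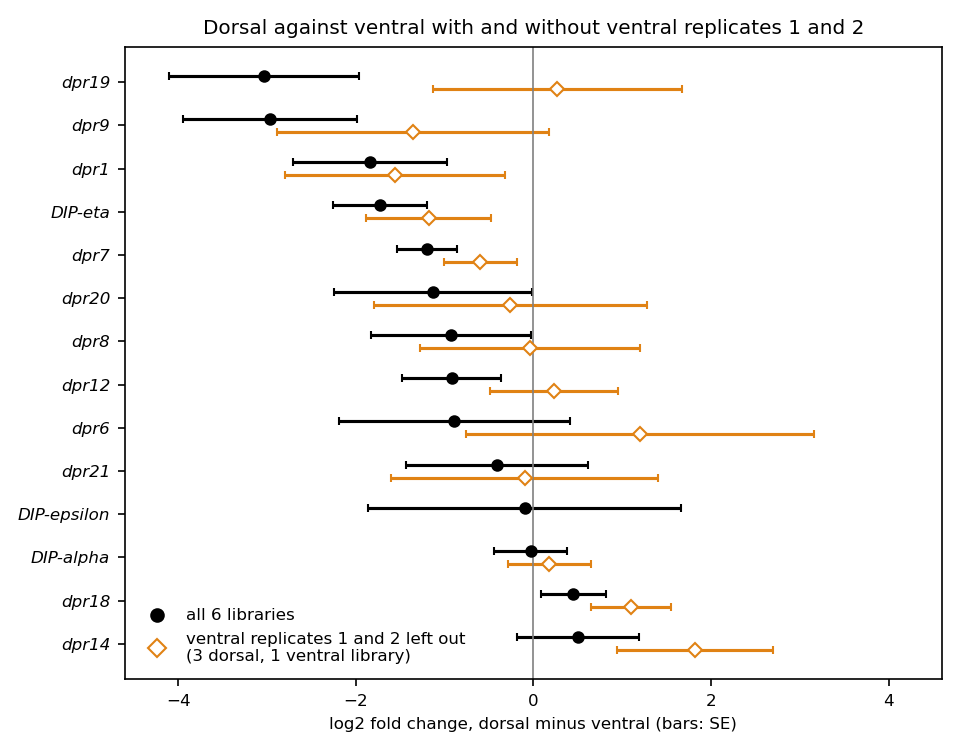
Log2 fold changes, dorsal minus ventral, of the 14 tested genes with SE, from all 6 libraries and with ventral replicates 1 and 2 left out. dpr19, dpr12 and dpr6 cross to the dorsal side in the second fit, while dpr9, dpr1, DIP-eta and dpr7 stay on the ventral side; DIP-epsilon has no second point because the remaining ventral library held 0 of its reads.

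Genes of neurons, 10 with a value, were set beside these libraries, and they did not all follow one pattern. Ventral replicate 1 lay above all 3 dorsal libraries for 8 of the 10 genes (80.0%), ventral replicate 2 for 7 (70.0%) and ventral replicate 3 for 3 (30.0%). Of tested genes, 29.8%, 29.8% and 22.3% did so in these libraries. The 10 include Syn and Gad1, which did not pass the filter, so the sets are not fully alike. nSyb, a synaptic vesicle protein gene, stood at 1.05, 1.06 and 1.64 CPM in the dorsal libraries, against 39, 6.63 and 0.618 CPM in the ventral libraries. ChAT, of acetylcholine synthesis, stood at 0.312, 1.13 and 1.03 CPM in the dorsal libraries, against 1.97, 7.57 and 0.124 CPM in the ventral libraries. Both genes were thus high in ventral replicates 1 and 2 and below the dorsal range in ventral replicate 3, as was Gad1, of GABA synthesis, which had no read there.

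The other neuron genes differed from this. brp, of the active zone, stood at 3.43, 2.23 and 4.4 CPM in the dorsal libraries, against 6.71, 20.8 and 6.22 CPM in the ventral libraries, and Syt1, the calcium sensor of synaptic vesicles, at 7.34 to 7.44 CPM in the dorsal libraries, against 18.6, 26.5 and 9.03 CPM in the ventral libraries. All 3 ventral libraries lay above the dorsal ones for both, with ventral replicates 1 and 3 close to each other for brp. Syn stood at 0.195, 0.319 and 0.382 CPM in the dorsal libraries, against 3.22, 0.147 and 0.742 CPM in the ventral libraries, so that ventral replicate 2 was the lowest of all. VGlut, the vesicular glutamate transporter gene, stood at 4.6, 6.09 and 4.66 CPM in the dorsal libraries, against 28.6, 5.26 and 3.75 CPM in the ventral libraries, and Rdl, a GABA receptor gene, at 0.429, 1.42 and 3.21 CPM in the dorsal libraries, against 6.1, 2.41 and 0.948 CPM in the ventral libraries. Only ventral replicate 1 lay above the dorsal range for VGlut and Rdl, and only ventral replicate 2 for elav and fne. Summed, the synaptic genes nSyb, Syt1, brp and Syn held 12, 11.1 and 13.8 CPM in the dorsal libraries and 67.5, 54.1 and 16.6 CPM in the ventral libraries. The sum over all 10 genes, which elav and fne dominate, was 476 to 905 CPM in dorsal libraries and 599.7 to 1167 CPM in ventral libraries, with overlapping groups. Of the 8 tested neuron genes 7 had higher values in ventral libraries, with a median log2 fold change of -1.29, and none passed (edgeR). The part of neuronal RNA in the Dpr and DIP values was not tested. Genes of other cell types varied between these libraries too. The neuroblast gene dpn stood at 39.3, 36.3 and 21.1 CPM in the dorsal libraries, against 77.3, 50.4 and 25.8 CPM in the ventral libraries. Ventral replicates 1 and 2 were thus above its dorsal range, but the other neuroblast genes did not share this. For ase no ventral library was above the dorsal range. Ventral replicate 2 lay inside that range for wor, mira, insc and nerfin-1 and below it for pros. Ventral replicate 1 lay above it for wor and mira and inside it for insc, pros and nerfin-1. For the glia gene repo only ventral replicate 1, at 3.03 CPM, was above the dorsal range. The part of these cell types was not tested either.

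**Figure D4:**
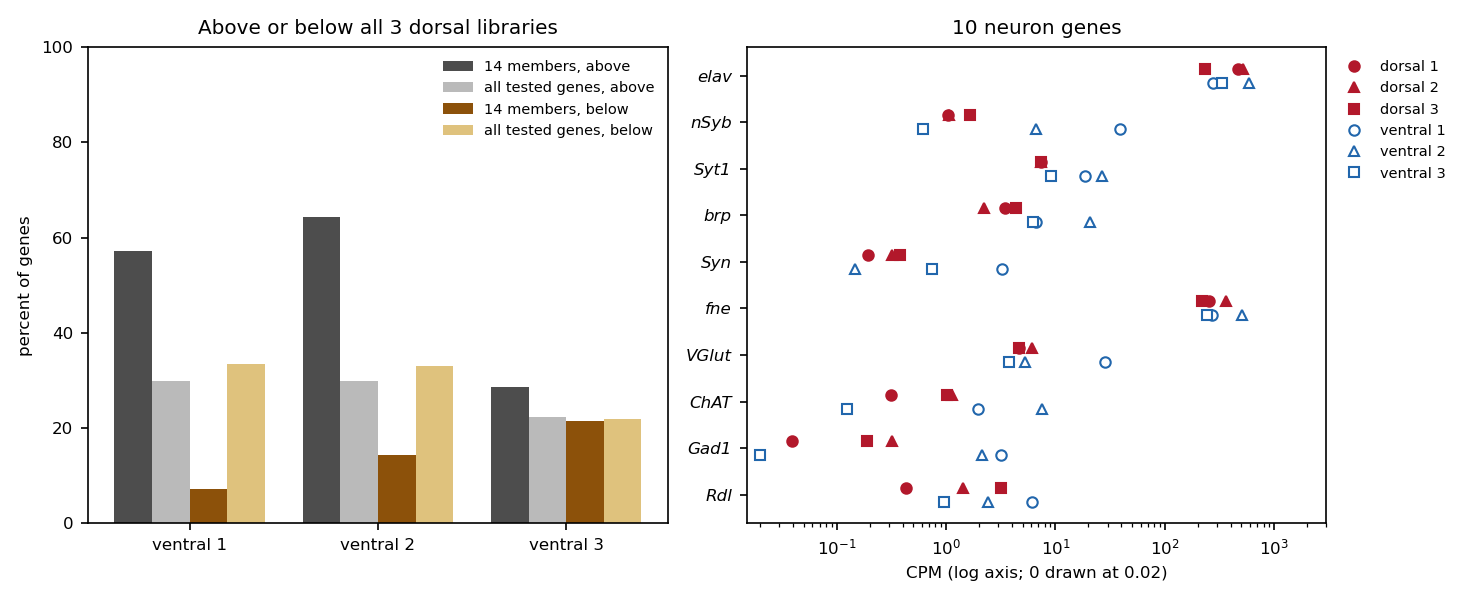
Left, percent of the 14 tested Dpr and DIP genes and of all 8707 tested genes that lay above or below all 3 dorsal libraries, for each ventral library. Right, CPM (log axis) of the 10 neuron genes in each library, with filled dorsal and open ventral symbols; ventral replicate 1 lies above the dorsal libraries for 8 genes, ventral replicate 2 for 7 and ventral replicate 3 for 3.

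Other sets of surface immunoglobulin genes were compared. The Beat and Side families, which include a receptor and ligand of motor axon guidance, are another network of this kind. Of 22 Beat and Side genes, 11 reached a mean of 1 CPM and 13 were tested, of which none passed (edgeR). Of the 13, 12 had higher values in ventral libraries, with a median log2 fold change of -1.94, where 49.7% of all tested genes were higher in ventral. Here too a gene high in 1 group can pass the filter through that group, so the count supports nothing about the family. The same limit holds for the neuron genes above and the relatives below. side-III had the smallest p of them, with 0.507, 0.815 and 0.191 CPM in the dorsal libraries, against 3.07, 3.59 and 0.948 CPM in the ventral libraries (-2.32 ± 0.91). beat-Ib came next, at 0.702, 0.142 and 0 CPM in the dorsal libraries, against 5.31, 1.67 and 0.495 CPM in the ventral libraries (-3.13 ± 1.37). Both were highest in ventral replicates 1 and 2. Ventral replicate 3 lay just above the dorsal range for side-III and inside it for beat-Ib.

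Close relatives and a binding partner of the Dpr and DIP proteins were counted in the same way. Of 8 such genes 7 were tested, 5 with higher values in ventral and 2 in dorsal libraries, with a median log2 fold change of -0.48, and none passed (edgeR). Lac, a septate junction protein, was read at 122, 89.5 and 127 CPM in the dorsal libraries, against 123, 102 and 85.2 CPM in the ventral libraries. DIP-lambda, a further DIP gene outside the 31, stood at 0.078, 0.85 and 1.11 CPM in the dorsal libraries, against 15.9, 0.147 and 2.89 CPM in the ventral libraries, so that ventral replicate 1 was far above all others and ventral replicate 2 inside the dorsal range (-3.21 ± 1.37). CG34353 had the next smallest p (-1.76 ± 0.97). cDIP, which binds members of both families, had 0.177 to 0.351 CPM in dorsal libraries and 0.295 to 0.682 CPM in ventral libraries and was not tested.

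The 31 genes are long and spread over the genome, with 9 on 2L, 4 on 2R, 4 on 3L, 8 on 3R, 5 on X and 1, dpr7, on chromosome 4. The median span was 27.9 kb for the 14 tested members and 32.3 kb for the 17 others, against 2.72 kb for all tested genes. In 4 places members lie within 100 kb of each other, and in each the neighbours differed in total reads. dpr6 had 127 reads in all and dpr10 28, and DIP-eta had 751 and DIP-theta 26. dpr17 had 100 and dpr15 36, and dpr4 had 34 and dpr5 7. These totals are not scaled by length and are low except for DIP-eta. Ventral replicate 1 alone held 71 of the dpr6 reads and 69 of the dpr17 reads.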

How the data were processed

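The authors deposited whole-number read counts per gene, not normalized, and normalized counts, a signal scale. Dividing the counts of each library by a single factor gave the same values within a tolerance of 0.01. Per the submitters' processing notes, reads were processed with Trimmomatic, featureCounts and DESeq2 on dm6 and BDGP6. The aligner, tool versions and strand setting were not given in the sources used here. Of 17559 identifiers 17253 had a symbol. Members and lists were chosen with earlier results of these data known.

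Counts were tested on the whole table by the quasi-likelihood test of edgeR 4.0.16 under R 4.3.3, with a robust fit, group alone in the model, TMM scaling and the filterByExpr filter (Benjamini-Hochberg adjustment over 8707 genes, threshold 0.05), a step also tested on simulated data. The SE was taken as the size of the log2 fold change divided by the root of its F statistic. Every member was described, in full where tested or with 20 reads in any library, and of each related list the 2 genes with the smallest p. Members were ordered by known binding partners. Of the other genes, Lac, ogre, cDIP, the roX RNAs and the neuron genes Syn, fne, VGlut, ChAT, Gad1 and Rdl were named after their values were seen. The same holds for the neuroblast genes wor, mira, insc, pros and nerfin-1. Alternatives were DESeq2 1.42.0, scaling by library size, upper-quartile or RLE factors, limma 3.58.1 (voom with sample weights, and log2 of normalized counts + 1 with a trend), other filters and thresholds, a replicate block, and libraries left out. Deviations from the group means correlated at 0.0972, 0.00238 and 0.0792 between libraries of the same number, which gives no ground for pairing. The list of other cell types (Hml, NimC1, Mhc) held 1.26 to 1.91 CPM in dorsal and 1.2 to 1.47 CPM in ventral libraries, glia genes 155 to 227 and 140.5 to 232 CPM, neuroblast genes 674 to 1661 and 1065 to 1768 CPM, and neuroepithelium genes 1212 to 1562 and 1231 to 1863 CPM, with 0 members called in each (edgeR).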

Additional observations from a re-analysis of the deposited data

How the results depend on the processing

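No member was called toward dorsal in any alternative, and none toward ventral in any but DESeq2, which called 1 (DIP-eta). The 14 tested members kept their direction in most fits, and dpr1, dpr7, dpr8, dpr9, dpr14, dpr18 and DIP-eta in all that were run, although dpr8 came to -0.07 without ventral replicate 2 and -0.04 without ventral replicates 1 and 2, and dpr14 to 0.11 without ventral replicate 3. With the replicate block, DIP-alpha had a log2 fold change of 0.04 and DIP-epsilon 1.09; with limma-voom these were 0.12 and 2.26, and with limma-trend 0.03 and 0.76. With ventral replicates 1 and 2 left out the values were 1.20 for dpr6, 0.23 for dpr12, 0.27 for dpr19 and 0.18 for DIP-alpha. DIP-epsilon was fitted at 7.72 with no ventral read left, so this value is not a measured fold change. The median was 0.25 over the 20 members tested in that fit and 0.07 over the 14, of which 7 were higher in ventral. That median over the 14, an alternative chosen after seeing the data, was also 0.07 with DIP-epsilon set to its bound. When libraries were left out 1 at a time, values ran from -1.87 to 1.20 for dpr6, -2.59 to 0.09 for dpr20, -1.60 to 0.10 for dpr21, -0.26 to 0.34 for DIP-alpha and -1.46 to 4.53 for DIP-epsilon. The median was -0.14 with DESeq2 and -0.08 with no filter, since both hold all 31 members. Members separating the groups toward dorsal numbered 3 of 31 with DESeq2 and with no filter (9.68%, where 3.97% and 4.17% of all genes did) and 1 of 15 with at least 10 reads in 3 libraries (6.67%, where 4.17% did). Toward ventral they numbered 4 of 31 in the first 2 settings (12.9%, where 2.70% and 2.46% did). With at least 10 reads in 3 libraries they numbered 4 of 15 (26.7%, where 3.17% did). With ventral replicates 1 and 2 left out, 7 of 20 lay toward dorsal (35.0%, where 22.0% of all genes did) and 5 toward ventral (25.0%, where 22.3% did). With each library left out, 0 to 3 members lay toward dorsal, where 7.65% to 9.92% of all genes did. There were 0 without dorsal replicate 1 or 3, where 8.44% and 8.18% of all genes did. Toward ventral lay 4 to 6 (25.0% to 35.3%, where 6.11% to 10.9% of all genes did). Without ventral replicate 1, 3 of 16 lay toward dorsal (18.8%, where 9.92% did) and 4 of 16 toward ventral (25.0%, where 10.9% did). Without ventral replicate 3, 6 of 17 lay toward ventral (35.3%, where 7.74% did). Members read numbered 7 at 2 CPM, 5 at 1 CPM in all 6 libraries, 6 at 1 RPKM and 7 without ventral replicates 1 and 2. Where no cause is given, the cause was not tested. Members with under 20 reads per library are limited by depth.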
